A study of Drosophila melanogaster with 10 samples.

Results

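The Cpr family of cuticle proteins was followed in whole adult Drosophila melanogaster on 10 arrays. Its members were all genes whose current symbol begins with Cpr and a number, the number being that of the cytological band that holds the gene. The gene table of the Release 6 assembly has 70 such symbols, and 58 of them had a probe set of their own, out of 10844 genes named on the array. The brightest probe set stood for each gene. Of the 58 genes, 35 were bright enough to test. The other 23 were dim, with a mean log2 intensity under the 40th percentile of all probe sets, which corresponds to an intensity of 93.8. For the fits, intensities under 57.4, the 20th percentile, were raised to that level, and intensities printed here are as deposited. By chromosome arm, 28 of the 58 genes lie on 3L, 17 on 2R, 5 on 3R, 4 on 2L and 4 on X. The remaining 12 symbols, 6 of them in the Cpr65A run, had no probe set of their own and were not analysed here.

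All 10 arrays came from flies given the same treatment. As larvae, early in the third instar, they were moved to a standard diet that lacked yeast, they were kept on it as adults, and the course began 4 days after they emerged. Each array held RNA of whole animals from 1 hour of a 12 hour course, namely hours 1, 2, 3, 5, 6, 7, 9, 10, 11 and 12, and values of a course are given in that order. The labels give neither the strain, the sex nor the number of flies per array. With 1 array per hour there are no replicates, so a p-value rests on the spread of the arrays around the fitted line or group mean, which may be technical. The question put to these data was how cuticle genes behaved over the hours. In whole animals, fewer cells of a type and less RNA per cell cannot be told apart.

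Cpr proteins are secreted by the epidermis and other cells that make cuticle, and they carry the Rebers and Riddiford consensus, a stretch that binds chitin. Together with chitin they form much of the insect cuticle, and different members serve larval, pupal and adult cuticle. Many are switched on around a moult, and young adults keep adding inner cuticle for some days after they emerge. The genes lie in runs of neighbours on the chromosomes.

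The medians of the 10 arrays lay between 111.2 and 120.1, with the highest at hour 3. That array stood apart: 8.78% of the 8380 tested probe sets were at least 1.5-fold above their median over the remaining arrays, against at most 0.74% on any other array. The summed intensity of 5 testis genes stood at 3133 at hour 7 and between 971 and 1046 at the other hours. Levels of different probe sets are not comparable on this platform, so no Cpr gene is ranked against another by level.

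Most Cpr genes held a steady level. The ratio of the highest to the lowest of the 10 arrays had a median of 1.30 over the 35 bright genes, and 29 of the 35, or 82.9%, stayed under 1.5-fold. Over all tested probe sets the median ratio was 1.33 and 73.3% stayed under 1.5-fold. Without the hour 3 array the medians were 1.24 for the Cpr genes and 1.26 for all tested probe sets. The narrowest courses were those of Cpr47Eg and Cpr78Cb. Cpr47Eg had intensities of 97.8, 98.0, 95.2, 95.2, 96.7, 103.8, 94.9, 104.2, 95.9 and 98.2. These lay near the brightness limit of 93.8. Cpr78Cb had 182.9, 203.3, 181.2, 186.1, 187.1, 184.8, 196.5, 189.5, 183.6 and 193.9. In neither gene did the highest array exceed the lowest by more than 1.12-fold. The widest courses were those of Cpr49Ae, Cpr66D, Cpr64Ac and Cpr49Ac, with ratios of 2.64, 2.46, 1.93 and 1.80.

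**Figure D1:**
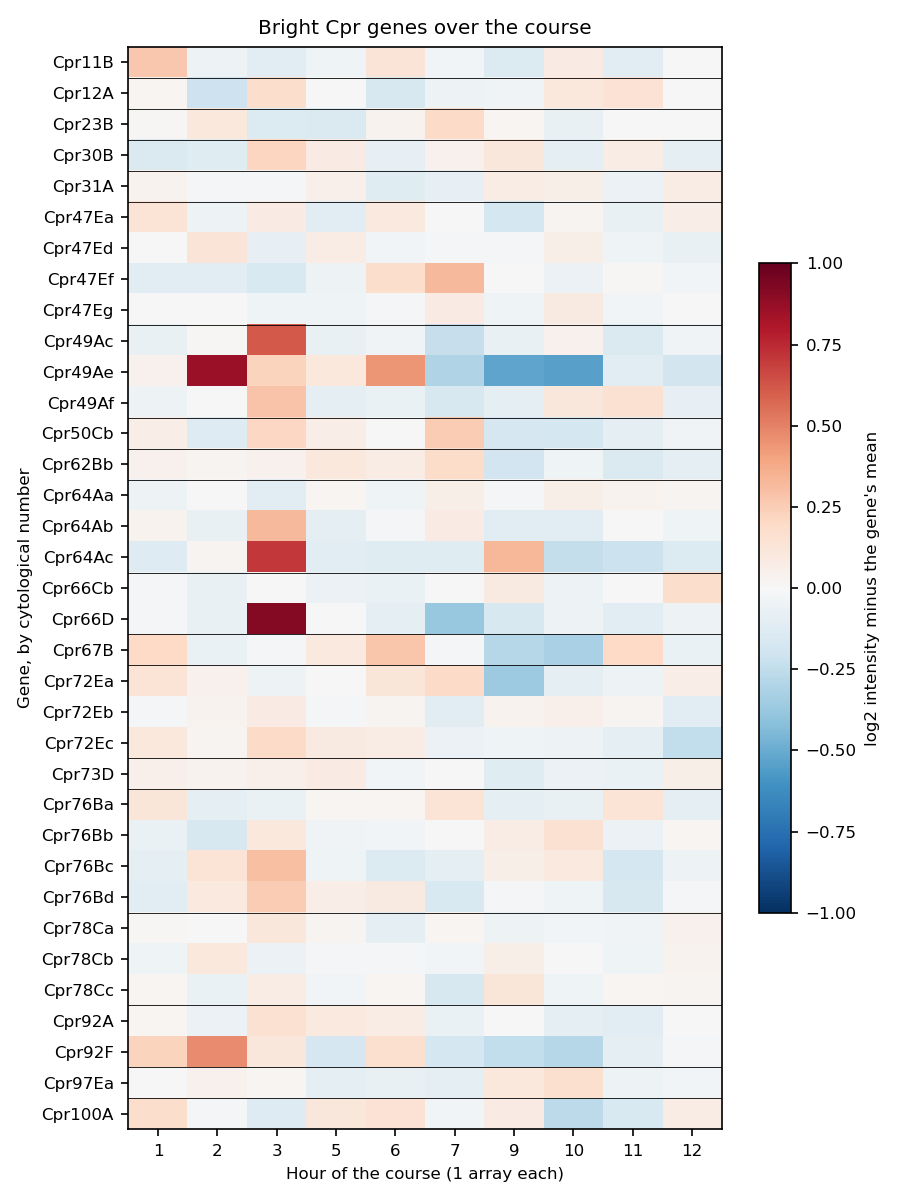
Each row is 1 of the 35 bright Cpr genes, ordered by cytological number, and each column is the array of 1 hour. Colour gives log2 intensity minus the gene's own mean, red above and blue below. Most rows are pale, and the darkest red cells are Cpr66D at hour 3 and Cpr49Ae at hour 2.

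No Cpr gene passed the test for a linear trend over the hours. With limma, 0 of 35 were called after adjustment over all 8380 probe sets, of which 0.0477% were called, and the smallest adjusted p of a Cpr gene was 0.937. At an unadjusted p under 0.05 there were 3 of 35, or 8.57%, against 3.71% of all tested probe sets. They were Cpr72Ec, Cpr49Ae and Cpr92F, all with negative slopes. A smooth curve over the hours also called 0 of 35 with limma, and 0% of all tested probe sets. Its unadjusted p was under 0.05 for the same 3 genes, again 8.57%, against 1.62% of all tested probe sets. For Cpr72Ec it lay at that limit, at 0.05 when rounded (limma). The count depended on the processing. With quantile normalization or median centring it was 2 of 35, and without the filter 4 of 35. Without the hour 9 array or without the hour 10 array it was 0 of 35.

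Cpr49Ae, on 2R, had the widest course of the tested members. Its intensities were 197.1, 347.7, 224.0, 206.5, 259.5, 155.6, 132.7, 131.8, 176.7 and 168.4. The hour 2 array was the highest, 1.97-fold above the median of the rest, and every array from hour 7 on lay below every array up to hour 6. The slope, expressed over the 11 hours between the first and last array, was -0.83 ± 0.28 in log2 (SE, n = 10 arrays; limma, adjusted p = 0.937).

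Cpr92F, on 3R, had intensities of 124.0, 147.5, 114.9, 94.5, 118.8, 93.9, 89.3, 86.8, 99.7 and 105.1. Like Cpr49Ae, it was highest at hour 2 and lowest at hour 10, and in both genes hour 6 lay above hours 5 and 7. Of all tested probe sets, 6.17% were highest at hour 2, 18.8% were highest at hour 6 and 22.7% were lowest at hour 10. Its slope over the course was -0.48 ± 0.16 (SE; limma, adjusted p = 0.937). Several of its values lay near the brightness limit.

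Cpr72Ec, on 3L and known as a protein of the corneal lens, had a narrower course of 245.9, 233.6, 260.7, 242.8, 240.5, 219.7, 222.2, 221.1, 214.8 and 193.0. Its lowest array was the last one. The slope was -0.29 ± 0.09 (SE; limma, adjusted p = 0.937). Another corneal lens gene, retinin, had 345.7, 417.4, 515.9, 342.8, 403.1, 363.6, 370.6, 373.8, 368.7 and 353.1, which is highest at hour 3, and a slope of -0.18 ± 0.16 (SE; limma, adjusted p = 0.937). The photoreceptor genes Arr1, Arr2 and trp, looked at as markers of the eye, had slopes of 0.40, 0.03 and -0.08, and 0 of 3 were called.

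**Figure D2:**
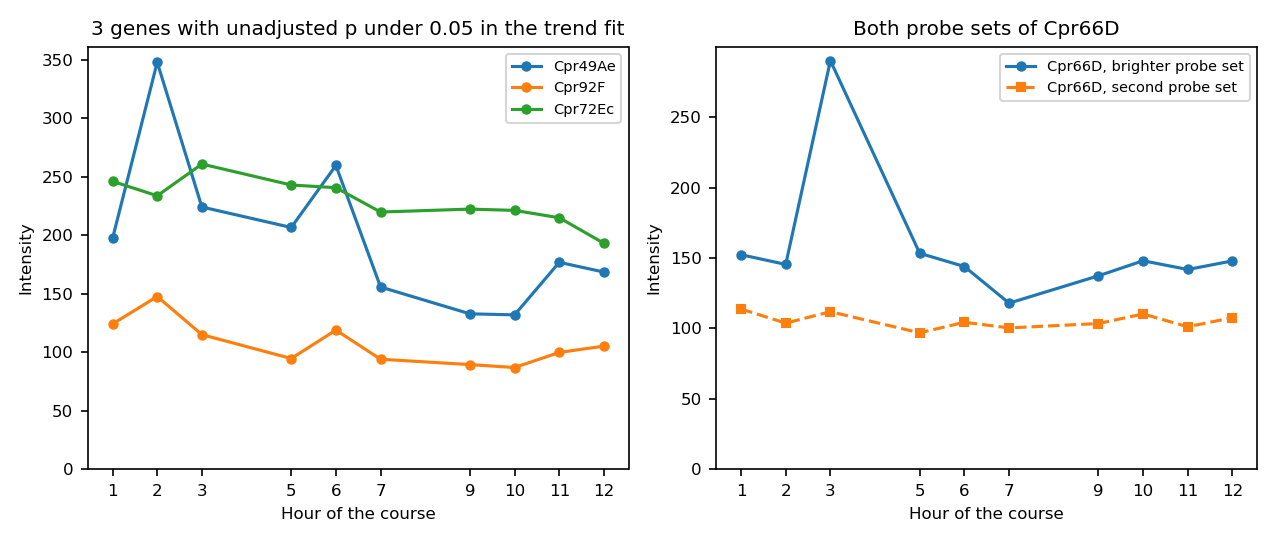
Intensity is plotted against the hour for Cpr49Ae, Cpr92F and Cpr72Ec on the left and for both probe sets of Cpr66D on the right. Cpr49Ae and Cpr92F are highest at hour 2, and at hour 3 the brighter probe set of Cpr66D stands at 290.2 and the second at 111.8.

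The next smallest p-value among negative slopes was that of Cpr62Bb, on 3L. It had 251.1, 248.1, 250.6, 262.7, 256.2, 277.0, 212.9, 235.9, 220.3 and 228.8 and a slope of -0.20 ± 0.105 (SE; limma, adjusted p = 0.937). Its 2 lowest arrays were those of hours 9 and 11, while hour 7 was the highest.

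Among positive slopes the smallest p-values were those of Cpr66Cb, Cpr76Bb, Cpr64Aa and Cpr47Ef, and none was under 0.05 before adjustment. Cpr66Cb had 104.3, 100.5, 106.0, 101.6, 101.4, 106.1, 112.9, 102.2, 106.2 and 119.4, highest in the last array, with a slope of 0.13 ± 0.08 (SE). Cpr76Bb had 109.7, 103.1, 123.7, 112.4, 112.9, 114.6, 121.0, 127.6, 110.1 and 116.2, with a slope of 0.10 ± 0.09 (SE). The intensities of Cpr64Aa were 524.2, 544.5, 501.8, 548.0, 525.8, 565.5, 538.1, 565.5, 555.6 and 551.3, and its slope was 0.09 ± 0.085 (SE). Cpr64Aa was lowest on the hour 3 array, where many other probe sets were highest. For Cpr47Ef the course was 133.9, 134.7, 130.5, 139.8, 163.4, 181.2, 145.3, 139.2, 146.2 and 141.9, with a slope of 0.12 ± 0.13 (SE). Its values at hours 6 and 7 stood above all others.

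The arrays of hours 7 to 12 were then set against those of hours 1 to 6. With limma 0 of 35 Cpr genes differed, against 0.0119% of all tested probe sets, and the smallest adjusted p was 0.345. At an unadjusted p under 0.05 there were 4 of 35, or 11.4%, against 6.25% of all tested probe sets. These were Cpr49Ae, Cpr72Ec, Cpr92F and Cpr76Bd, all with negative differences.

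Cpr49Ae averaged 153.0 ± 20.4 in hours 7 to 12 and 247.0 ± 61.1 in hours 1 to 6 (SD, n = 5 each). The log2 difference was -0.67 ± 0.15 (SE; limma, adjusted p = 0.345). Its later arrays reached 176.7 at most and its earlier ones 197.1 at least, so the groups did not overlap. Cpr72Ec averaged 214.2 ± 12.2 in the later hours and 244.7 ± 10.0 in the earlier ones (SD, n = 5 each), a difference of -0.19 ± 0.06 (SE; limma, adjusted p = 0.588). Its later arrays reached 222.2 at most and its earlier ones 233.6 at least. These were the 2 of 35 genes whose groups did not overlap, where 1.49% of all tested probe sets had such groups. In both, the later arrays lay below the earlier ones, as they did in 1.25% of all tested probe sets.

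Cpr92F averaged 95.0 ± 7.5 in hours 7 to 12 and 119.9 ± 19.1 in hours 1 to 6 (SD, n = 5 each), a difference of -0.33 ± 0.10 (SE; limma, adjusted p = 0.662). Its groups overlapped, since hour 12 stood at 105.1 and hour 5 at 94.5. Cpr76Bd averaged 155.7 ± 7.5 in the later hours and 174.1 ± 15.7 in the earlier ones (SD, n = 5 each), a difference of -0.16 ± 0.07 (SE; limma, adjusted p = 0.781). Its groups overlapped as well. Cpr66D had a difference of -0.30 ± 0.175 (SE; limma, adjusted p = 0.816), and without the hour 3 array it was -0.11. Its second bright probe set had -0.02 ± 0.06 (SE; limma, adjusted p = 0.932). The largest positive differences were 0.10 ± 0.08 for Cpr47Ef, 0.09 ± 0.05 for Cpr66Cb and 0.07 ± 0.05 for Cpr64Aa (SE), and all 3 had overlapping groups.

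Markers of other tissues were read beside this split, and with limma 0 of the yolk, basement membrane and blood cell, testis, photoreceptor and muscle markers were called between later and earlier hours. The yolk genes Yp1, Yp2 and Yp3 summed to between 615.4 and 1071 in hours 7 to 12 and to between 842.2 and 3539 in hours 1 to 6, with overlapping ranges and 3 of 3 slopes negative. Col4a1 and vkg, of the basement membrane, and the blood cell gene Hml summed to between 772.6 and 928.2 in the later hours. In the earlier ones they summed to between 1017 and 1363, without overlap and also with 3 of 3 slopes negative. Taken singly, Col4a1 and vkg did not overlap, as was so for 1.49% of all tested probe sets. Hml did overlap, with 181.9 to 206.0 in the later hours and 184.6 to 300.5 in the earlier ones. The median differences of the photoreceptor, testis and muscle markers were 0.04, 0.36 and -0.08. The testis genes were high on the hour 7 array alone, with a sum of 3133 there and between 971 and 1046 at the other hours. None of these markers was at 0 on any array. Their part in the Cpr differences was not tested.

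Over the family, the median difference of later minus earlier hours was -0.06 for the 35 Cpr genes and -0.03 for all tested probe sets. Without the hour 3 array these medians were -0.018 and -0.014. With all arrays the difference was below 0 for 24 of 35 Cpr genes, 68.6%, and for 63.4% of all tested probe sets. With quantile normalization 19 of 35 Cpr genes were below 0 and 46.7% of all tested probe sets, so the split depended on how arrays were scaled.

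**Figure D3:**
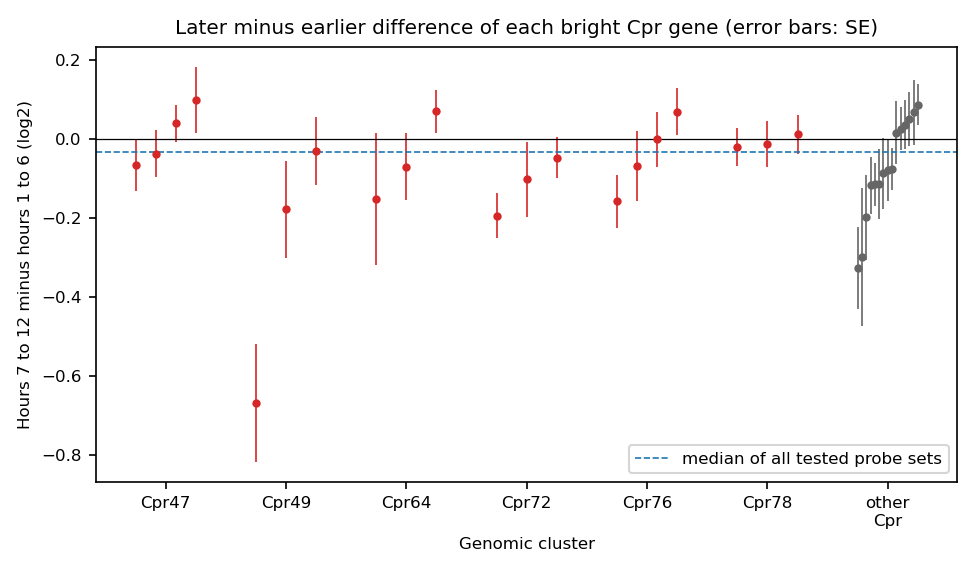
Each point is 1 bright Cpr gene, placed by genomic cluster, and its height is the log2 difference of hours 7 to 12 minus hours 1 to 6 with its SE. The dashed line marks the median of all tested probe sets, -0.03, and the lowest point is Cpr49Ae at -0.67.

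Clusters were formed from Cpr genes that share a cytological number, and 6 had at least 3 bright genes. In the gene table the Cpr64 and Cpr76 genes each form an unbroken run of 4 protein-coding genes, and the Cpr72 genes a run of 3. The 7 Cpr47 genes lie within 9 protein-coding genes and the 8 Cpr49 genes within 15. Cpr78E lies apart from its namesakes, so that the 4 Cpr78 genes span 61. Bright genes were 4 of 4 measured in Cpr76, 3 of 3 in Cpr72, 3 of 4 in Cpr64, 3 of 4 in Cpr78, 4 of 7 in Cpr47 and 3 of 6 in Cpr49. Related neighbours can cross-hybridise, so genes of a cluster are not independent measurements.

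The Cpr49 cluster had a median ratio of highest to lowest array of 1.80 over the 10 arrays, the highest of the 6 clusters. Without the hour 3 array the ratio was 1.24, below the 1.27 of Cpr72. Its median difference of later minus earlier hours was -0.18, with 3 of 3 below 0, and -0.046 without the hour 3 array. Cpr49Ac had 147.4, 156.8, 237.5, 147.6, 151.2, 132.2, 147.4, 159.6, 140.6 and 151.4, which is 1 high array at hour 3 over an otherwise level course. Its difference was -0.18 ± 0.12 (SE; limma, adjusted p = 0.816), and -0.05 without the hour 3 array. Cpr49Af lay between 110.6 and 150.6 and was also highest at hour 3, unlike Cpr49Ae. Of the dim genes of the cluster, Cpr49Ab stood at 163.4 at hour 3 beside a median of 78.6 over the 10 arrays. Cpr49Ad and Cpr49Ah had medians of 52.2 and 45.2.

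Genes of the Cpr64 cluster differed in course, and the cluster's median difference was -0.07. It was 0.007 without the hour 3 array and 0.01 with quantile normalization. Cpr64Aa, given above, was level. Cpr64Ab stood at 476.3 at hour 3 beside a median of 374.8. Cpr64Ac had 486.4, 541.3, 868.0, 491.9, 489.1, 489.8, 667.8, 450.9, 457.8 and 482.5, with hours 3 and 9 as its 2 highest arrays. Its difference was -0.15 ± 0.17 (SE; limma, adjusted p = 0.833), and 0.007 without the hour 3 array. Cpr64Ad was dim, with a median of 89.2.

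In the Cpr72 cluster 3 of 3 differences were below 0, with a median of -0.10, which was -0.161 without the hour 7 array and -0.061 without the hour 9 array. Cpr72Ea had 308.8, 288.4, 269.9, 280.5, 305.5, 319.4, 217.8, 261.8, 270.8 and 293.7, lowest at hour 9. Cpr72Eb lay between 160.6 and 184.8. In the Cpr76 cluster the median difference was -0.03, and it was -0.009 without the hour 3 array and -0.005 with quantile normalization. Of its 4 differences 3 were below 0, among them Cpr76Ba at -0.00022. Cpr76Bc had 159.2, 187.0, 209.1, 165.0, 154.3, 158.8, 176.7, 181.6, 150.4 and 163.9 and Cpr76Bd had 151.5, 175.8, 195.7, 172.5, 175.0, 148.2, 161.7, 159.4, 146.9 and 162.3. Both were highest at hour 3 and lowest at hour 11, while Cpr76Bb was highest at hour 10 and Cpr76Ba lay between 93.3 and 109.6.

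In the Cpr47 cluster the median difference was 0.002, with 2 of 4 below 0, and between -0.016 and 0.018 when each array was left out. Cpr47Ed had 289.5, 315.9, 272.6, 304.2, 284.1, 286.3, 286.4, 301.2, 280.5 and 274.4, and Cpr47Ea lay between 95.3 and 118.3. In the Cpr78 cluster the 3 differences lay between -0.02 and 0.01, the narrowest span of the 6 clusters, and their median took either sign, between -0.021 and 0.022, when each array was left out. Cpr78Ca lay between 116.0 and 134.0 and Cpr78Cc between 122.9 and 149.8.

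**Figure D4:**
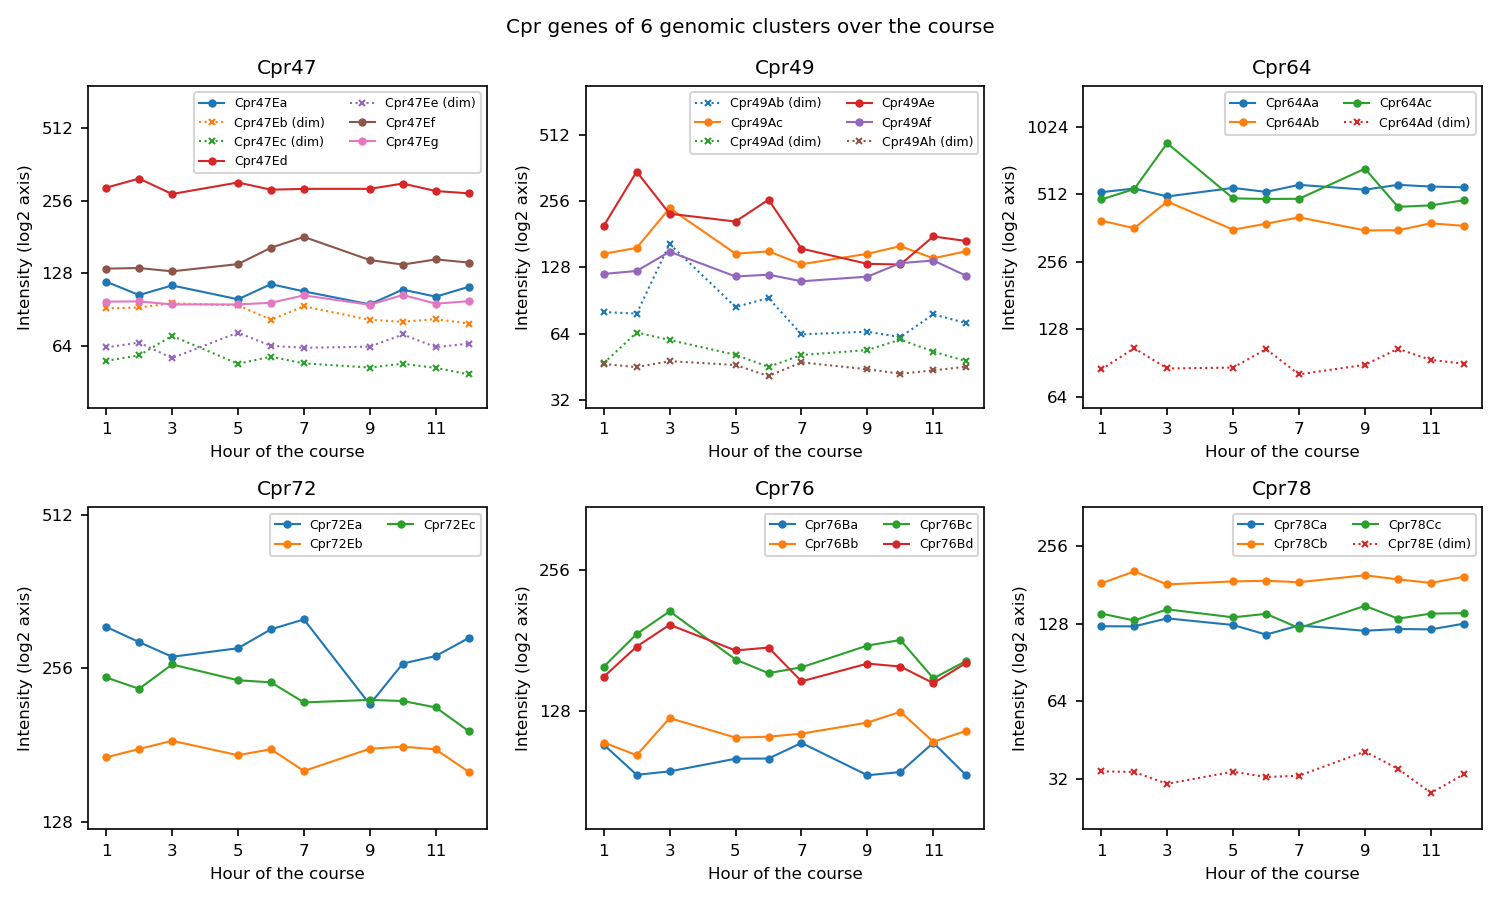
Intensity, on a log2 axis, is plotted against the hour for every measured gene of the 6 clusters, with solid lines for bright genes and dotted lines for dim ones. Levels of different genes cannot be compared. Cpr64Aa is level, while Cpr64Ac stands at 868.0 at hour 3.

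Correlations within clusters had low or negative medians, over 3 to 6 pairs in each cluster. Since most courses were nearly level, a low correlation cannot show whether genes share a course. The median Pearson correlation of pairs within a cluster, over the log2 values of the 10 arrays, was 0.26 in Cpr49, 0.10 in Cpr47, 0.07 in Cpr72, -0.04 in Cpr78, -0.11 in Cpr76 and -0.64 in Cpr64. For 166 pairs from different clusters it was 0.11. These values are descriptions, since all pairs share the 10 arrays and their scaling. Without the hour 3 array the median was 0.27 in Cpr49, -0.34 in Cpr64 and -0.02 for pairs from different clusters. In Cpr72, Cpr47, Cpr78 and Cpr76 it was then 0.16, 0.10, 0.06 and -0.25. The closest pair of a cluster reached 0.76 in Cpr49 and 0.72 in Cpr76.

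The hour 3 array held the highest value of more Cpr genes than any other array did. It was the highest array for 13 of the 35 bright Cpr genes and for 30.8% of all tested probe sets. On it 3 of 35 Cpr genes, 8.57%, stood at least 1.5-fold above their median of the rest, near the 8.78% of all tested probe sets. They were Cpr66D at 2.00-fold, Cpr64Ac at 1.77-fold and Cpr49Ac at 1.61-fold. With quantile normalization those folds were 1.74, 1.59 and 1.44. On the hour 2 array Cpr49Ae was the 1 of 35, 2.86%, against 0.358% of all tested probe sets. On the other 8 arrays 0 of 35 reached 1.5-fold. For hours 1, 5, 6, 7, 9, 10, 11 and 12 the share of all tested probe sets that did so was 0.251%, 0.107%, 0.656%, 0.68%, 0.74%, 0.0597%, 0.0477% and 0.131%.

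**Figure D5:**
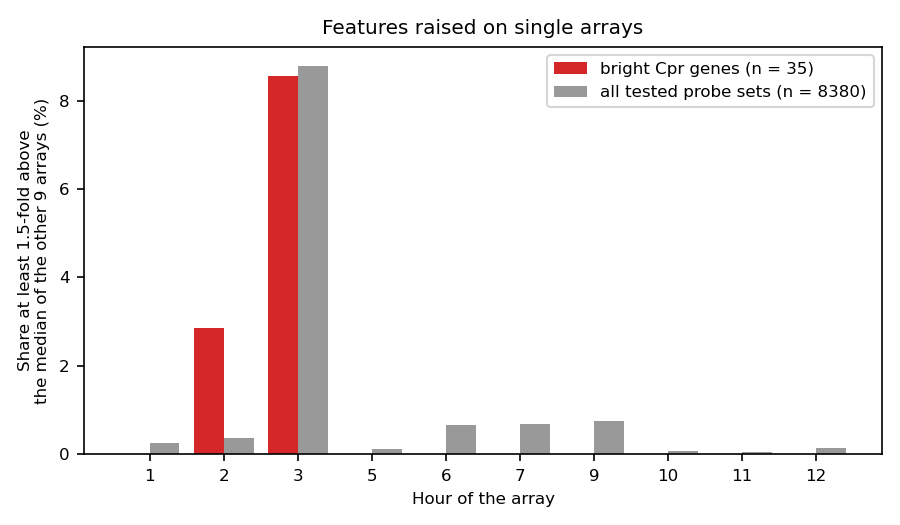
Bars give, for the array of each hour, the percent of the 35 bright Cpr genes and of all 8380 tested probe sets that stood at least 1.5-fold above their median over the remaining arrays. At hour 3 the bars are 8.57% and 8.78%, and at hour 2 they are 2.86% and 0.358%.

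Cpr66D, on 3L and another protein of the corneal lens, had 2 bright probe sets that disagreed at hour 3. The brighter one had 152.3, 145.4, 290.2, 153.3, 143.9, 117.9, 137.3, 148.0, 141.8 and 147.9. The second had 113.7, 103.7, 111.8, 96.8, 104.3, 100.3, 103.4, 110.2, 101.1 and 107.6. At hour 3 the brighter stood 2.00-fold and the second 1.08-fold above its median of the rest. Cpr73D had 266.0, 263.6, 265.8, 271.4, 251.9, 256.6, 236.0, 246.7, 245.6 and 267.9 by its brighter probe set, and its second was dim, between 52.4 and 70.2.

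The remaining 10 bright genes lie outside these clusters. Cpr67B, on 3L, had the widest course of them, between 297.9 and 451.3, and was highest at hour 6. Cpr50Cb had 216.3, 189.4, 239.4, 217.0, 207.4, 246.8, 184.7, 183.4, 194.4 and 201.8. Cpr92A had 220.0, 208.5, 241.3, 231.9, 228.4, 206.7, 216.0, 204.0, 200.6 and 216.1. Their differences of later minus earlier hours were -0.09 ± 0.09 and -0.11 ± 0.055 (SE), neither of them called. Cpr100A lay between 398.9 and 541.9, Cpr12A between 398.8 and 519.9, Cpr23B between 194.8 and 244.7 and Cpr30B between 185.9 and 238.6. The narrowest of the 10 were Cpr31A, between 108.6 and 124.3, and Cpr97Ea, between 184.2 and 219.6, and Cpr11B lay between 93.1 and 123.6.

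The 23 dim genes were given no test. They include every measured Cpr65 gene, namely Cpr65Az, Cpr65Ea, Cpr65Eb and Cpr65Ec, and both measured Cpr67F genes. The medians of the dim genes over the 10 arrays ran up to 90.9, in Cpr65Eb, and down to 8.9, in Cpr67Fa2, which shares a further probe set with Cpr67Fa1. Besides Cpr49Ab at 2.09-fold, Cpr62Bc stood 1.90-fold above its median of the rest at hour 3, at 156.3. Cpr51A had 64.6 at hour 6 and a median of 39.5. Also dim were Cpr67Fb, Cpr11A, Cpr35B, Cpr50Ca, Cpr56F, Cpr5C, Cpr62Ba, Cpr78E, Cpr97Eb, Cpr47Eb, Cpr47Ec and Cpr47Ee.

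Other genes of cuticle making were read from the same fits. Of 11 tested genes for other cuticle proteins with the Rebers and Riddiford consensus, 0 passed the trend in either direction. Their median slope over the course was -0.13, with 10 of 11 below 0, against a median of -0.04 and 63.4% below 0 over all tested probe sets. Among the negative slopes, those of Lcp65Ac, Lcp65Aa and Lcp9 were smaller than their SE, at -0.007 ± 0.103, -0.034 ± 0.113 and -0.035 ± 0.079. So were those of Lcp65Ad and Ccp84Ac, at -0.106 ± 0.121 and -0.133 ± 0.135. Acp65Aa, an adult cuticle protein gene, had 113.2, 132.2, 154.9, 124.8, 120.0, 97.0, 109.2, 101.6, 104.2 and 108.2 and a slope of -0.37 ± 0.14 (SE; limma, adjusted p = 0.937). Edg84A and Ccp84Ad had slopes of -0.18 and -0.14. At hour 3, Ccp84Ag stood at 568.4, 2.73-fold above its median of the rest. Its slope was -0.50 ± 0.37 (SE), and its ratio of highest to lowest array was 2.91 with and 1.13 without the hour 3 array.

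Tweedle genes encode an insect family of cuticle proteins that affects body shape. Of 16 tested, 0 passed in either direction, and the median slope was -0.08. At hour 3, TwdlD had 564.7 and TwdlK 367.8, 2.38-fold and 2.19-fold above their medians of the rest. They were the 2 of 16 to reach 1.5-fold there, where 8.78% of all tested probe sets did so. TwdlC had a slope of 0.17 ± 0.12 (SE; limma, adjusted p = 0.937).

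Of 6 tested chitin-binding obstructor genes 0 passed, with a median slope of 0.02. Gasp, which encodes a chitin-binding protein of the airway lining, had 264.7 at hour 6, its highest array, and 113.4 at hour 10, its lowest. The slopes of obst-E and obst-J were -0.14 and 0.09. Of 13 tested genes of chitin synthesis and remodelling 0 passed, with 9 of 13 slopes below 0, where 63.4% of all tested probe sets had a slope below 0. The chitin deacetylase genes verm and serp had slopes of -0.25 ± 0.11 and -0.15 ± 0.13 (SE), and the chitinase gene Cht2 had -0.12 ± 0.09 (SE). The chitin synthase gene kkv was dim.

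Of 7 tested tanning genes, which harden and colour the cuticle, 0 rose and 1 fell, where 0.0477% of all tested probe sets were called. That was t, or tan, which also acts in the eye, with 231.4, 187.6, 147.7, 164.3, 158.5, 150.6, 118.3, 112.7, 113.1 and 119.1. It fell by 0.90 ± 0.13 in log2 over the course (SE, n = 10 arrays; limma, adjusted p = 0.0458). The call on t was lost in 14 of 18 alternatives, with an adjusted p of up to 0.31. These included both other normalizations, no filter and leaving out any 1 array other than that of hour 3, without which the adjusted p was 0.0068. The laccase gene stw had -0.26 ± 0.15 and the pigment gene y -0.12 ± 0.08 (SE). The tyrosine hydroxylase gene ple stood at 323.5 at hour 3, 1.58-fold above its median of the rest. Of 4 tested regulators of moulting and cuticle 0 passed, with slopes of -0.25 for Hr38, 0.32 for ftz-f1 and -0.04 for EcR.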

How the data were processed

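Total RNA of whole animals was measured on Affymetrix arrays, 1 array per hour. The deposited values are linear intensities that the authors normalized with dChip, per the labels. Its version is not stated in the labels. Scaling arrays to one another removes any shift common to most probe sets.

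The table held 14010 probe sets. After 44 controls were left out, 12443 had 1 gene in the platform annotation, 327 had several and were left unnamed, and 1196 had none. Symbols were updated by Entrez identifier, of which 12394 were in the Release 6 gene table. Coordinates are not printed because the build is not named. The 3 probe sets that pair a Cpr gene with another gene were not used.

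Values under the 20th percentile were raised to it and log2 was taken, which understates changes of dim genes. Tests were run on probe sets whose mean log2 reached the 40th percentile. The limma fits, moderated with a trend on intensity, were two-sided with Benjamini-Hochberg adjustment over all tested probe sets at 0.05. They were a slope on the hour, hours 7 to 12 minus hours 1 to 6, and a natural cubic spline with 3 degrees of freedom, each tested on simulated data. The number of arrays limits the precision. Named by rule were the members with the smallest p in each fit, the largest differences, the widest and narrowest courses and the brightest of each cluster, and up to 3 of each other list by slope p. Other genes were named after their values were seen. Members and lists were chosen with earlier results of these data known. The consensus subclass of each protein was not analysed here. Alternatives changed the normalization, floor, filter, variance model, split, curve, probe set choice and arrays used. Tools were R 4.3.3, limma 3.58.1, Python 3.11.15, pandas 2.3.3 and matplotlib 3.10.9.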

Additional observations from a re-analysis of the deposited data

Results flagged for a closer look

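Of the 35 bright Cpr genes, 4 had 1 array far from the other 9, judged by its gap to the nearest array divided by the gene's whole range in log2. Chance flags about 1 in 20, and the share flagged over all tested probe sets was not computed. The hour 3 array was the highest for 3 of the 4 genes, with a ratio of 0.708 in Cpr66D, 0.678 in Cpr49Ac and 0.548 in Cpr64Ab. It was also the highest array for 30.8% of all tested probe sets. In Cpr72Ea the hour 9 array was the lowest, with a ratio of 0.48.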

How the results depend on the processing

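In the 3 fits, 0 Cpr genes were called under any of the 21 alternatives, and the smallest adjusted p of a named Cpr gene in them was 0.259. The 4 probe sets with a trend became 1 with an offset of 32 in place of the floor, 0 without the filter and between 0 and 2 when each array was left out. The 1 probe set that differed between later and earlier hours became 3 after quantile normalization and 2 after median centring. Without the filter it was 0, with a filter at the 60th percentile 3, with a split after hour 5 or hour 7 it was 0, and leaving out each array gave between 0 and 2. A quadratic curve called 4 probe sets where the spline called 0. The causes were not tested. The Cpr median difference was -0.008 after quantile normalization. With a split after hour 7 the Cpr72 median was -0.177 and the Cpr78 median 0.026. Signs changed for 9 values of named Cpr genes, none of them called. Cpr47Ed had a slope of 0.0177 and a difference of 0.0337 after quantile normalization, and Cpr47Ef a difference of -0.03 with a split after hour 7. Leaving out each array, the difference of Cpr64Ac ranged from -0.252 to 0.00718, the slope of Cpr78Cb from -0.0096 to 0.0739 and its difference from -0.000535 to 0.041. Single-array folds under other scalings, and spread and correlations without the hour 3 array, were chosen after seeing the data. With either other scaling 2 Cpr genes reached 1.5-fold at hour 3. Of all tested probe sets, 5.84% did so after quantile normalization and 6.99% after median centring. No paired analysis was possible because all 10 arrays belong to 1 group. For dim genes near the floor, raising low values to it understates a change.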
